A study of Glycine max with 6 samples.

Results

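The NAC transcription factors of soybean were followed in the seed coats of 2 near-isogenic lines of the variety Clark, one with black (iRT) and one with brown (irT) seeds. Members were the probe sets that the array annotation ties to a single gene symbol beginning with NAC. This rule gave 30 of the 37641 soybean probe sets, and they represent 15 genes. A further 5 probe sets carry NAC among several gene entries, which includes the only one for NAC5, and were left out. RNA of 3 black and 3 brown plants was hybridized to Affymetrix Soybean GeneChips, 1 array for each plant, from seed coats dissected when fresh seeds weighed 300 to 400 mg. Both isolines carry the recessive i allele, which lets the whole seed coat accumulate pigment, and the dominant T allele of the flavonoid 3'-hydroxylase gene. They differ by the dominant R allele in black and the recessive r allele in brown plants, and the comparison asked which transcripts go with this difference. Plants were untreated, their age in days is not given in the labels, and each genotype is 1 isoline.

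NAC proteins are plant-specific transcription factors named after NAM, ATAF and CUC. A conserved domain at the N-terminus binds DNA and joins the proteins into dimers, and a variable C-terminal region activates or represses transcription. Members of the family control organ boundaries, secondary cell walls, senescence and responses to drought, salt and abscisic acid. In Arabidopsis, a pair of NAC proteins called NARS1 and NARS2 act in the integuments, from which the seed coat forms, and are needed for normal seed shape. In soybean, GmNAC6 acts in a cell death response to osmotic and endoplasmic reticulum stress, and GmNAC27, also known as SIN1, promotes root growth under salt.

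The deposited signals are on the log2 scale, so a difference of 1 is a 2-fold change. Soybean probe sets had medians of 5.76 to 5.91 on the 6 arrays, and correlations between arrays ranged from 0.983 to 0.996. Probe sets for Phytophthora sojae and Heterodera glycines, pathogens carried on the same array, set the background level as their 95th percentile, which was 3.54 to 3.78. The seed coat markers Ep, SCB1 and HPS were far above it on every array (10.9 to 14.2). A list meant for embryo and storage transcripts, PM and LEA among them, held 52 probe sets, 41 of them higher in black by the means. Their median log2 fold change was 0.88, and none passed limma's test (smallest adjusted p = 0.56). The list was drawn by the start of gene symbols. It therefore also holds CGS2, which is not a storage protein and whose log2 fold changes were -0.17 to -0.004. In this list KTI3 had 11.8 in black plant 1 against 8.04 to 8.72 in the other plants, while GY2 was highest in brown plant 1. Transcripts of PM and LEA proteins, which accumulate in maturing embryos, varied among plants of 1 genotype and were higher in black by the means, with a median log2 fold change of 1.41 and positive values in 28 of 32 probe sets, though none passed limma's test (smallest adjusted p = 0.571). Of these probe sets 22 were above background on all 6 arrays and 1 on none. The average distance of a plant from the probe set means was 1.88, 0.81 and -0.96 in black plants 1 to 3 and -0.66, 0.36 and -1.43 in brown plants 1 to 3. The part of these differences in the results on NAC genes, whose fold changes were also more often positive, was not tested. Whole seed coats were measured, so fewer cells of a type and less RNA per cell cannot be told apart.

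Of the 30 NAC probe sets, 18 were above background on all 6 arrays (60%, against 64.8% of all soybean probe sets), 2 on black plant 1 alone and 10 on no array. The 18 stand for 11 genes: NAC2, NAC3, NAC4, NAC6, NAC14, NAC018, NAC19, NAC22, NAC26, NAC27 and NAC34. No probe set of NAC1, NAC12, NAC23 or NAC51 was above background on all arrays. All 15 genes were matched to RefSeq by gene ID, and in the Glycine max v4.0 assembly none of them lies on chromosome 9. Of the genes with a measured signal, NAC2, NAC3 and NAC018 lie on chromosome 6, NAC4 and NAC6 on chromosome 12, and NAC19 and NAC27 on chromosome 13.

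None of the NAC probe sets differed between the genotypes at an adjusted p under 0.05 in limma, with the Benjamini-Hochberg adjustment over all 37641 soybean probe sets (smallest adjusted p = 0.505). Among all soybean probe sets 0.0664% rose and 0.0425% fell. None passed the thresholds of the study (more than 2-fold in either direction, at an unadjusted p under 0.01). The p used here was that of limma, where the study took its p from SAM. With it 0.181% of soybean probe sets passed as higher and 0.122% as lower in black. At an unadjusted p under 0.05, 3 NAC probe sets were higher in black and 0 lower, where 3.08% of all soybean probe sets were higher and 5.24% lower. These 3 were NAC2, NAC018 and NAC6, and they were also the only NAC probe sets above background in which every black plant lay above every brown plant. Over all soybean probe sets, 5.74% were higher and 8.3% lower in black without overlap. Of the 24407 soybean probe sets above background on all 6 arrays, 1205 were higher and 2423 lower in black without overlap.

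Fold changes are black over brown. The median log2 fold change of the 30 members was 0.05, against -0.02 for all soybean probe sets, and 21 of the 30 (70%) had a positive fold change, against 45.4% of all. For the 18 members above background the median was 0.20, against -0.04 for all soybean probe sets above background, and 14 of the 18 (77.8%) were positive, against 40.3%. These 14 include 7 probe sets of NAC3, NAC4 and NAC27, some of them designed on the same sequence. Without black plant 2 the log2 fold changes of the 7 lay between -0.10 and 0.17. Among the 18 members above background the fold changes ran from -0.24 to 0.75. The 95% interval of the log2 fold change lay wholly between -1 and 1 for 13 of these 18, so a 2-fold difference in either direction lay outside their intervals. For NAC018, NAC6, 2 probe sets of NAC3 and 1 of NAC27 the interval reached past 1. With 3 plants against 3 the smallest p of an exact permutation test is 0.1, so that test was not used. Counted by probe set, the members varied more among black than among brown plants. In 14 of the 18 above background the SD was larger in black (77.8%, against 63.5% of all soybean probe sets above background), with median SDs of 0.46 in black and 0.17 in brown plants beside 0.15 and 0.11 for all. These 14 are not separate genes, since they hold 4 probe sets of NAC3, 3 of NAC14 and 2 each of NAC19 and NAC27. NAC2, NAC22, NAC26 and NAC34 had the larger SD in brown, so the count is not a trait shared by the family.

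**Figure D1:**
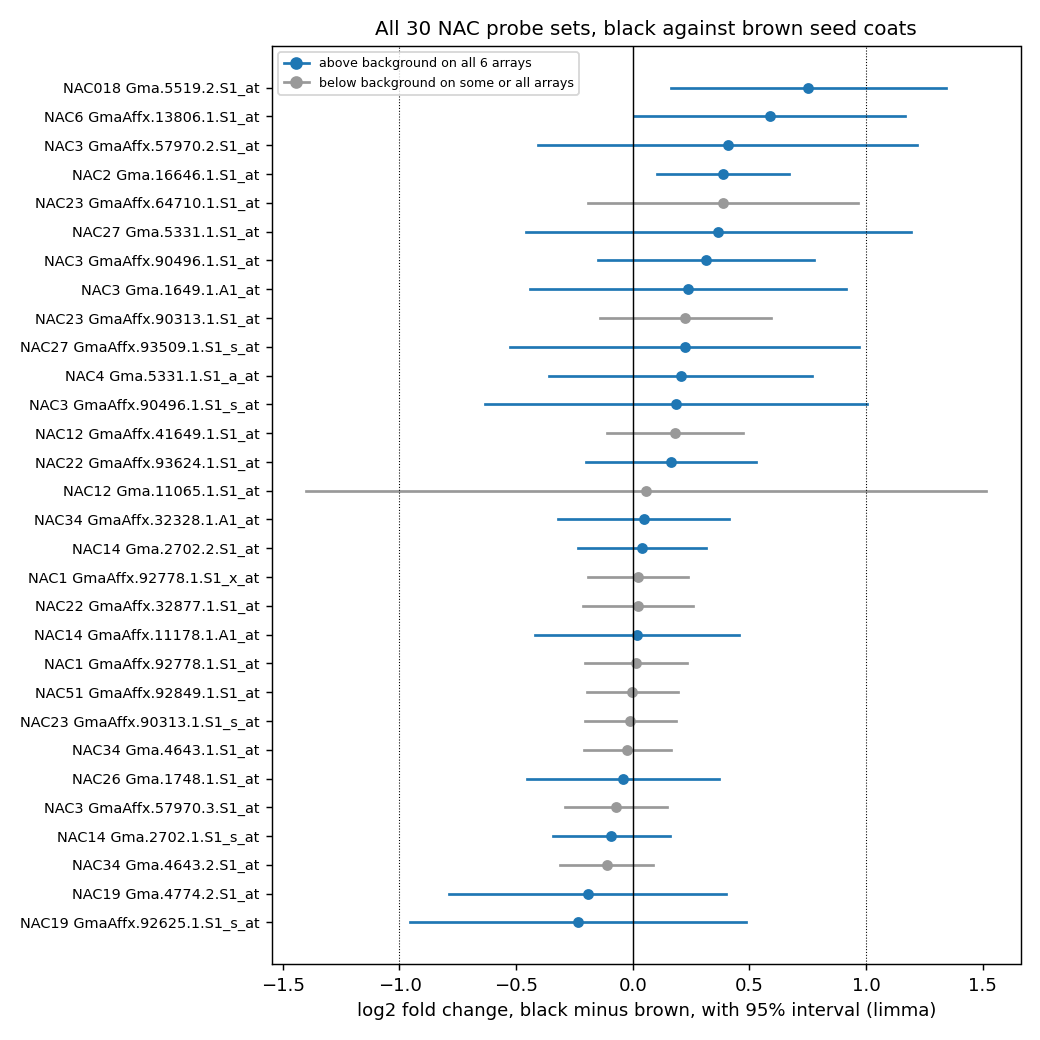
Log2 fold change of black over brown for each of the 30 NAC probe sets (points), with the 95% interval from limma (lines). Blue marks probe sets above background on all 6 arrays, grey the others, and dotted lines mark a 2-fold change in either direction. The values run from -0.24 for a NAC19 probe set to 0.75 for NAC018, and the intervals of NAC018, NAC6 and NAC2 alone lie above 0.

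The largest difference between genotypes was in NAC018. Its signals were 6.48, 6.56 and 7.46 in black plants 1 to 3, and 6.05, 6.18 and 6.01 in brown plants 1 to 3. Black plant 3 stood 0.90 above the next plant, while the other black plants lay closer to the brown ones. The black mean was 6.83 ± 0.54 (SD, n = 3) and the brown mean 6.08 ± 0.09 (SD, n = 3). Black exceeded brown 1.68-fold (95% interval 1.12 to 2.53, limma adjusted p = 0.524). Without black plant 3 the log2 fold change was 0.44.

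NAC6, the factor of the cell death response, had signals of 4.76, 4.83 and 5.48 in black plants 1 to 3, beside 4.64, 4.01 and 4.66 in brown plants 1 to 3. The highest brown and the lowest black plant thus differed by little, and the difference of the means came mainly from black plant 3, which was high, and brown plant 2, which was low. The difference of the means was 0.59 ± 0.25 (SE) on the log2 scale (unadjusted p = 0.0487, adjusted p = 0.598 from limma).

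NAC2, whose product lowered tolerance to abiotic stress when overexpressed in tobacco, was the NAC gene with the smallest unadjusted p. Its signals were 9.42, 9.64 and 9.50 across black plants 1 to 3, beside 9.04, 9.34 and 9.02 across the brown plants. Here the black plants lay close together, while brown plant 2 lay nearer to the black range than to the other brown plants. NAC2 averaged 9.52 ± 0.11 in black plants and 9.13 ± 0.18 in brown plants (SD, n = 3), or 1.31-fold higher in black (95% interval 1.08 to 1.59, unadjusted p = 0.0143, adjusted p = 0.505 from limma).

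**Figure D2:**
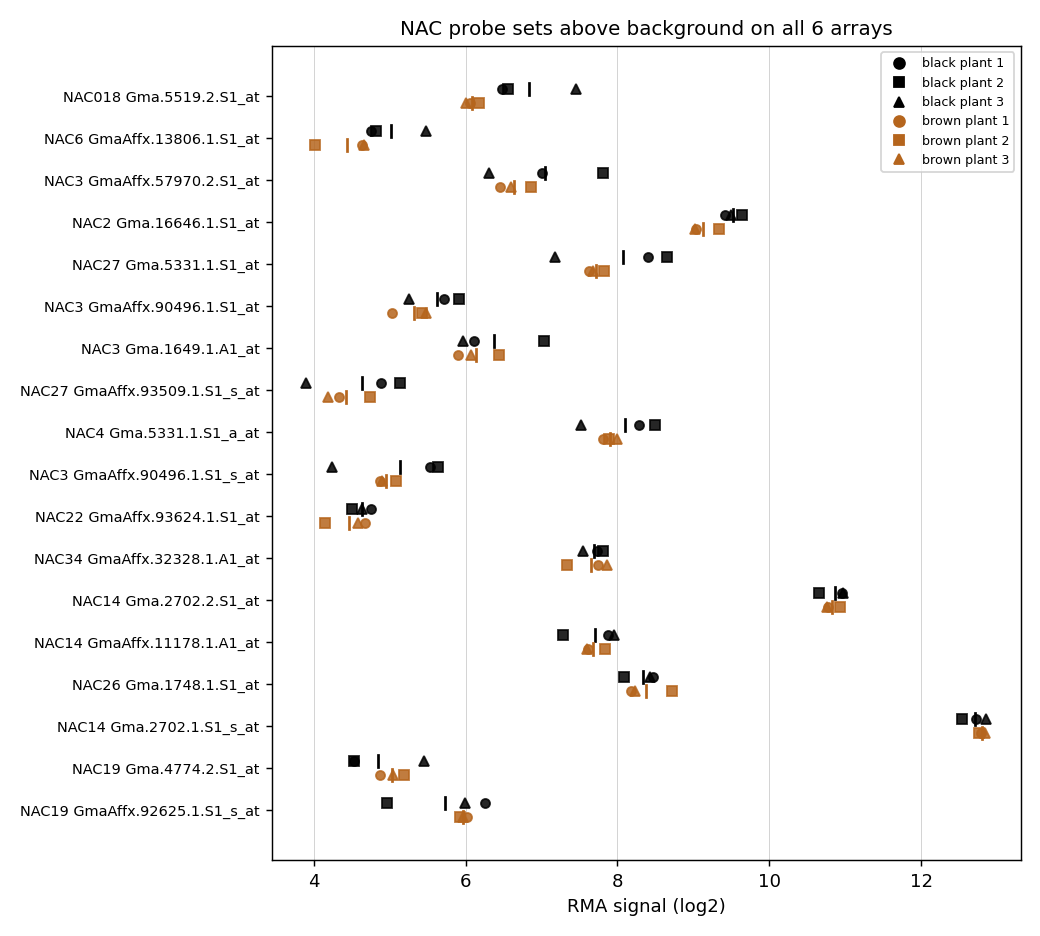
RMA signal (log2) of the 18 NAC probe sets above background on all 6 arrays, ordered by fold change. Each symbol is 1 plant (circle, square and triangle for plants 1, 2 and 3), black or brown by genotype, and vertical ticks are the means of 3 plants. Black and brown symbols do not overlap for NAC018, NAC6 and NAC2 only.

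NAC3, NAC4 and NAC27, factors induced by osmotic stress or salt in soybean, differed more between black plants than between genotypes. They were grouped here after their values were seen. RefSeq gives SNAC23 as a synonym of NAC3 and SNAC49 as one of NAC27, names for stress-responsive NAC factors. In all 7 of their probe sets above background black plant 2 was the highest of the 6 plants, and in 5 of the 7 black plant 3 was the lowest. NAC12 also has such a name (SNAC62), but only 1 of its probe sets passed background, in black plant 1 alone (4.99, against 2.58 in black plant 2). Among all soybean probe sets above background on all arrays, black plant 2 was the highest in 15.6% and black plant 3 the lowest in 12.4%. Since the grouping followed the values, this comparison is not a test of it. The log2 signals of black plants 2 and 3 differed by 0.66 to 1.5 in the 7 probe sets, while the 3 brown plants spanned 0.18 to 0.55. The fold changes moved with the plants included: without black plant 2 the 7 lay between -0.10 and 0.17 on the log2 scale, and without black plant 3 between 0.44 and 0.82.

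NAC27 had signals of 8.40, 8.66 and 7.18 in black plants 1 to 3 and 7.63, 7.83 and 7.68 in brown plants 1 to 3 with the first of its 2 probe sets, numbered here, as for other genes, only to tell them apart. The brown plants lay together between the black ones, with black plant 3 below all of them. The second probe set of NAC27 gave the same order of black plants with 4.89, 5.14 and 3.90, beside 4.33, 4.74 and 4.19 in brown. Neither differed between genotypes at an adjusted p under 0.05 (log2 fold changes 0.37 and 0.22, adjusted p = 0.806 and 0.881 from limma).

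NAC4 had 8.29, 8.50 and 7.52 across black plants 1 to 3, beside 7.81, 7.89 and 7.99 across the brown plants (log2 fold change 0.20, adjusted p = 0.848 from limma). Its probe set and the first one of NAC27 were designed on the same expressed sequence tag, and the extent to which each detects transcripts of the other gene is not known here. The values of NAC4 and NAC27 are therefore not separate evidence of a pattern.

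NAC3 is represented by 5 probe sets, of which 4 were above background. The first had signals of 7.01, 7.81 and 6.31 in black and 6.46, 6.86 and 6.60 in brown plants. The second had 6.11, 7.04 and 5.97 in black and 5.90, 6.44 and 6.07 in brown plants. In both, black plant 2 was well above the rest and brown plant 2 was the highest brown plant. The third had 5.71, 5.92 and 5.26 in black and 5.03, 5.43 and 5.49 in brown plants. The fourth, designed on the same sequence as the third, had 5.53, 5.63 and 4.24 in black and 4.88, 5.08 and 4.90 in brown plants. Black plant 3 was thus the lowest of all plants in the fourth and within the brown range in the third. The log2 fold changes of the 4 probe sets were 0.18 to 0.41 (adjusted p = 0.709 to 0.916 from limma). The fifth was below background on every array (2.32, 2.41 and 2.46 in black, 2.55, 2.49 and 2.38 in brown) and gives no fold.

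Over the 7 probe sets of NAC3, NAC4 and NAC27 the mean deviation was 0.27, 0.67 and -0.52 in black plants 1 to 3 and -0.29, 0.03 and -0.16 in brown plants 1 to 3. Like the PM and LEA transcripts these were lower in black plant 3 than in the other black plants and highest among brown plants in brown plant 2, but their highest plant was black plant 2 where that of PM and LEA was black plant 1. The part of the PM and LEA differences in this pattern was not tested.

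**Figure D3:**
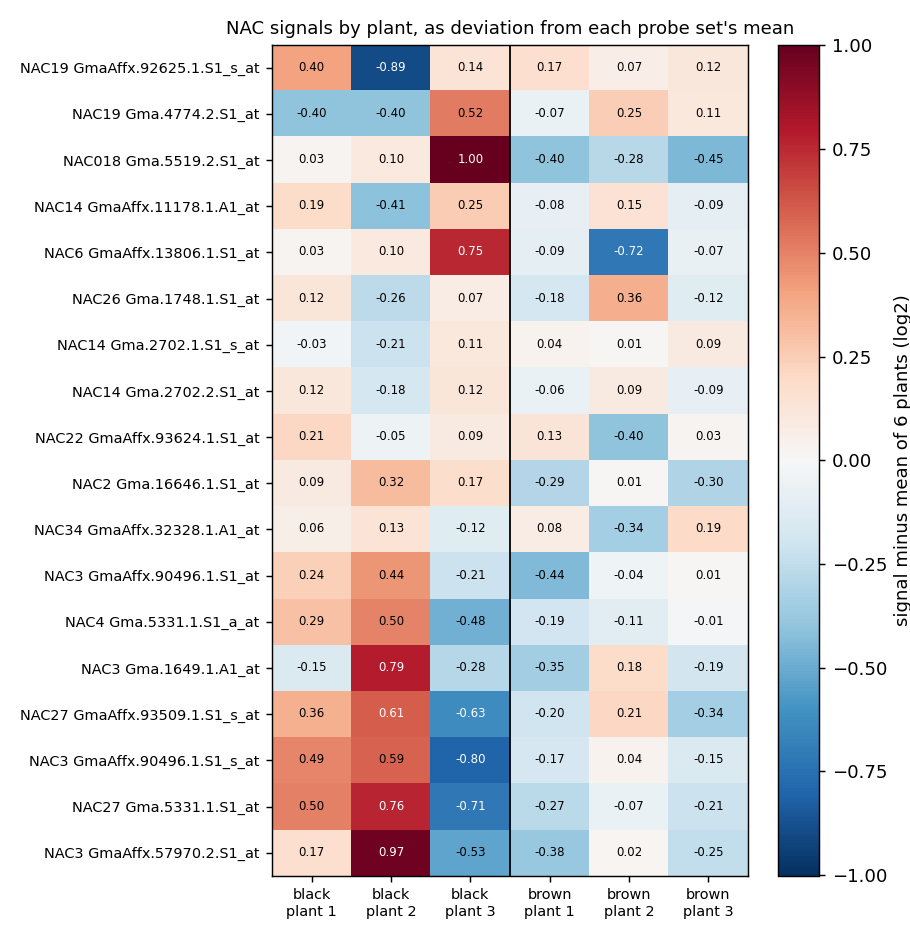
Deviation of each plant's log2 signal from the mean of the 6 plants (colour and number, red above and blue below) for the 18 NAC probe sets above background, ordered by the difference between black plants 2 and 3. The bottom 7 rows are NAC3, NAC4 and NAC27, all highest in black plant 2, and the largest deviation in the plot is that of NAC018 in black plant 3.

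The 11 other probe sets above background, left over from a grouping made after the values were seen, did not share this order. Their contrast with NAC3, NAC4 and NAC27 is therefore not separate evidence of a pattern. Black plant 3 was the highest plant in 6 of the 11 and the lowest in none, and black plant 2 was the lowest in 5. Over all soybean probe sets above background, black plant 3 was the highest in 17.8% and the lowest in 12.4%, and black plant 2 was the lowest in 27.6%, more often than any other plant. The 3 probe sets of NAC14 were all highest in black plant 3 and lowest in black plant 2. The first had 12.72, 12.54 and 12.86 in black and 12.79, 12.76 and 12.85 in brown plants. The second had 10.96, 10.66 and 10.96 in black and 10.78, 10.93 and 10.76 in brown plants. The third had 7.88, 7.28 and 7.95 in black and 7.61, 7.84 and 7.60 in brown plants. The genotypes overlapped in all 3, with log2 fold changes of -0.09 to 0.04 (adjusted p = 0.848 to 0.986 from limma). For the first the 95% interval of the fold change was 0.79 to 1.12, so larger differences lay outside it.

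NAC19, which RefSeq also lists as NAC20, had the lowest fold changes of the family, and its probe sets disagreed on the black plants. The first had 6.26, 4.96 and 5.99 in black and 6.02, 5.92 and 5.97 in brown plants, so that black plant 2 alone stood apart. The second had 4.54, 4.54 and 5.46 in black and 4.87, 5.19 and 5.05 in brown plants, where black plants 1 and 2 were low and black plant 3 was high. In neither did the genotypes separate (log2 fold changes -0.24 and -0.19, adjusted p = 0.865 and 0.867 from limma). Without black plant 2 the fold change of the first turned to 0.15 on the log2 scale. That of the second was -0.50 without black plant 3 and -0.04 without black plant 1 or 2.

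NAC26, NAC22 and NAC34 showed little difference between genotypes in the probe sets above background. NAC26 had a mean of 8.33 ± 0.21 in black plants and of 8.38 ± 0.30 in brown plants (SD, n = 3), with brown plant 2 the highest at 8.71 and black plant 2 the lowest at 8.09. NAC22 had 4.76, 4.50 and 4.64 in black and 4.68, 4.15 and 4.58 in brown plants. NAC34 had 7.73, 7.81 and 7.55 in black and 7.75, 7.33 and 7.87 in brown plants. Brown plant 2 was the lowest plant for both NAC22 and NAC34, and the genotypes overlapped (adjusted p = 0.804 and 0.958 from limma).

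NAC12 and NAC23 were above background in 1 plant, black plant 1. For NAC12, listed in RefSeq also as SNAC62, this probe set had 4.99 in black plant 1, 2.58 and 2.55 in black plants 2 and 3, and 3.25, 3.08 and 3.60 in brown plants 1 to 3. It had the widest range of the family, 2.44 on the log2 scale, and no fold is given since the black mean lay under the background level (adjusted p = 0.987 from limma). NAC23 had 4.43 in black plant 1, 3.59 and 3.43 in black plants 2 and 3, and 3.46, 3.33 and 3.50 in brown plants 1 to 3. No fold is given for it either, since no other black plant was above background (adjusted p = 0.716 from limma). Both rest on black plant 1. That plant also had the highest mean deviation of PM and LEA transcripts, and LEA5, a LEA protein, had 9.72 in black plant 1 against 5.46 to 5.67 in the others, values whose part in these NAC signals was not tested.

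The remaining probe sets, below background on every array, gave no measured difference. Those of NAC1 had 2.29, 2.26 and 2.23 in black and 2.36, 2.15 and 2.23 in brown plants with one probe set, and 2.5, 2.42 and 2.34 in black and 2.48, 2.38 and 2.33 in brown plants with the other. For NAC23, one of the dim probe sets had 2.64, 2.33 and 2.58 in black and 2.14, 2.14 and 2.60 in brown plants, and the other had 2.82, 2.92 and 2.94 in black and 2.90, 2.92 and 2.90 in brown plants. All of these values lay in the range of the pathogen probe sets. For NAC34, one dim probe set had 2.89, 2.91 and 2.93 in black and 2.93, 2.93 and 2.95 in brown plants, and the other had 2.76, 2.84 and 2.89 in black and 2.90, 2.97 and 2.95 in brown plants. The latter is the 1 of 30 NAC probe sets that was lower in black without overlap, where 8.3% of all soybean probe sets were, and it gives no fold. NAC12 had 2.61, 2.75 and 2.44 in black and 2.26, 2.57 and 2.44 in brown plants with its other probe set. NAC22 had 3.24, 3.00 and 2.98 in black and 3.02, 3.06 and 3.09 in brown plants with its other probe set. NAC51 lay at 2.27 to 2.36 in all plants.

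Genes of processes in which NAC factors act were followed by symbol. In soybean, ERD15 activates the promoter of NRP-B, the NRP proteins relay osmotic and endoplasmic reticulum stress to NAC6, and vacuolar processing enzyme (VPE), a protease that executes cell death, is a target of NAC factors in this pathway. The list held 8 probe sets of ERD15, NRP-A, NRP-B, VPE and VPE2, all above background on every array, and none rose or fell (smallest adjusted p = 0.611 from limma, median log2 fold change 0.00). VPE had the largest difference, with 9.86, 9.54 and 9.41 in black and 9.01, 9.53 and 9.05 in brown plants (log2 fold change 0.40, adjusted p = 0.611 from limma). Brown plant 2 lay within the black range. ERD15 had 10.3, 10.1 and 9.54 in black and 9.96, 9.76 and 10.0 in brown plants with the first of its probe sets, and 10.6, 10.4 and 9.55 in black and 10.0, 9.82 and 9.96 in brown plants with the second. Black plant 3, in which NAC6 was highest, had the lowest ERD15 signal in both. NRP-A went the other way, with black plant 3 the highest plant in both of its probe sets (9.43 and 10.5). The highest brown plants were close to it there, at 9.42 and 10.4. NRP-B, VPE and VPE2 were highest in other plants. The log2 fold changes of NRP-A, NRP-B and VPE2 lay between -0.14 and 0.07.

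**Figure D4:**
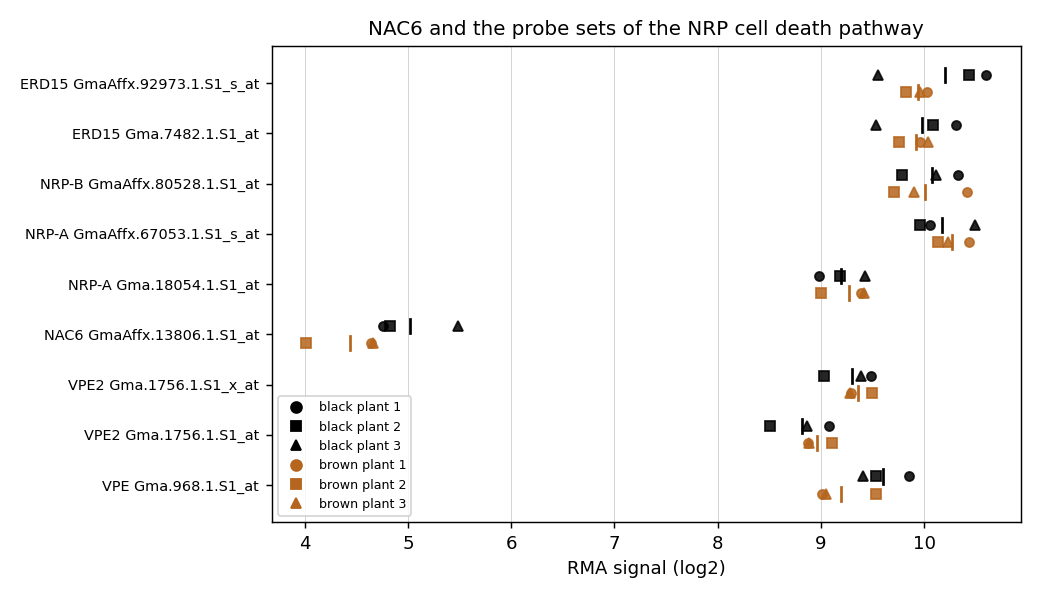
RMA signal (log2) of NAC6 and of the 8 probe sets for ERD15, NRP-A, NRP-B, VPE and VPE2. Each symbol is 1 plant (circle, square and triangle for plants 1, 2 and 3), black or brown by genotype, and ticks are the means of 3 plants. NAC6 is the only one whose black and brown plants do not overlap.

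The other lists were drawn by symbol for processes in which NAC factors act, and whether NAC factors act on these genes was not tested. They held 1 probe set that passed, where 0.0664% of all soybean probe sets rose and 0.0425% fell. Of 14 probe sets for secondary wall and lignin enzymes, 4CL4, a 4-coumarate-CoA ligase, rose in black, where it was 7.01 ± 0.22, against 5.83 ± 0.13 in brown seed coats (SD, n = 3, log2 fold change 1.18 ± 0.13 SE, adjusted p = 0.046 from limma). Its black plants had 6.92, 7.26 and 6.85 and its brown plants 5.93, 5.68 and 5.88, without overlap, and at 2.27-fold it also passed the thresholds of the study. The adjusted p was 0.0696 to 0.213 with each plant left out and 0.204 with the plant number as a block, while the log2 fold change was 1.06 to 1.26 in these fits, in which fewer soybean probe sets rose in all (9 to 20, against 25). 4CL, a further ligase, was lower in black by the means, at -0.33 on the log2 scale (adjusted p = 0.592 from limma). The median log2 fold change of the list was 0.00.

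Of 6 probe sets for abscisic acid synthesis and signalling, which match ZEP and the SPK protein kinases, none rose or fell (smallest adjusted p = 0.65 from limma). ZEP, zeaxanthin epoxidase, which makes precursors of abscisic acid, had a mean of 5.87 ± 0.27 in black plants and of 5.96 ± 0.46 in brown plants (SD, n = 3). Of 6 probe sets for senescence and proteolysis none passed (smallest adjusted p = 0.638 from limma). In 5 of them the fold change was positive, where 45.4% of all soybean probe sets had a positive one. Among these 5, that of SGR was below background on every array (2.23 to 3.06) and gives no fold. CYSP1, a cysteine protease, had a log2 fold change of 0.44, and SGR1, a stay-green protein of chlorophyll breakdown, one of 0.23 (adjusted p = 0.638 and 0.669 from limma). Of 14 probe sets for stress targets, which include those of ERD15, none passed (smallest adjusted p = 0.532 from limma). In 3 of the 14 every black plant lay above every brown plant, where 5.74% of all soybean probe sets did. These were COR2, a DREB1-like gene below background on all arrays, and DREB3, a factor of the AP2/ERF family that had 11.2 ± 0.17 in black and 10.9 ± 0.03 in brown plants (SD, n = 3). The medians of these 3 lists were -0.09, 0.27 and 0.15 on the log2 scale, beside -0.02 for all soybean probe sets.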

How the data were processed

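RNA of 3 black (iRT) and 3 brown (irT) plants was transcribed in vitro (100 ng of total RNA, 16 h) and hybridized to Soybean GeneChips. The authors deposited log2 signals made with RMA, which adjusts background, quantile-normalizes all arrays together and summarizes probes; software versions are not given in the sources used here. Quantile normalization removes shifts shared by all transcripts. The authors' tables of selected probe sets, with group means, fold changes, SAM scores and p-values, were not used in the fits or counts.

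Genotypes were compared by linear models fitted to every soybean probe set, with moderated two-sided tests (lmFit and eBayes of limma 3.58.1, run under R 4.3.3; prior degrees of freedom 3.17) and Benjamini-Hochberg adjustment over the 37641 probe sets. The study used SAM, which draws its p from other splits of the plants and was not run. Gene symbols came from the annotation of the array, where 8677 soybean probe sets carry 1 symbol and 370 several entries, and chromosomes and synonyms from RefSeq. The number of arrays limits the precision. Plants were numbered 1 to 3 in each genotype; whether the numbers mark shared batches is not stated. Members and lists were chosen with earlier results of these data known. Values were printed for every gene with more than 1 probe set, for probe sets at an unadjusted p under 0.05, and for the 5 highest and lowest fold changes and widest ranges. The pipeline was tested on simulated data. Figures were drawn with matplotlib 3.10.9 in Python 3.11.15. The fits were repeated with an intensity trend and robust prior, with weights per array, after centring arrays on their medians, after cyclic loess, and with pathogen probe sets included. They were also repeated without dim probe sets, without those whose names mark several targets (_s_at, _x_at, _a_at), with plant number as block and without each plant. The background was also set at the 99th percentile.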

Additional observations from a re-analysis of the deposited data

How the results depend on the processing

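No NAC probe set rose, fell or passed the thresholds of the study under any alternative tried, and the smallest adjusted p of a member in limma ranged from 0.0953 to 0.917. The 0.0953 was that of the first probe set of NAC27 without black plant 3, with a log2 fold change of 0.82. Without single plants the log2 fold changes of NAC2, NAC018 and NAC6 were 0.33 to 0.49, 0.44 to 0.93 and 0.36 to 0.72. Their sign could not turn in these fits, since their genotypes do not overlap. The median log2 fold change of the members was 0.11 with array weights, 0.20 with dim probe sets left out, which removes 12 of the 30, and 0.025 to 0.139 with each plant left out. The 1 probe set lower in black without overlap was lost with median centring and with dim probe sets left out (0 in both). The rise of 4CL4 was the only call of the lists, and the count became 0 with the replicate block and 0 in each fit without 1 plant. With the 99th percentile as background, 13 NAC probe sets were above it on all arrays.

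Small fold changes turned sign, given here on the log2 scale. With array weights, NAC26 had 0.0586, the probe set of NAC34 above background -0.0177 and a dim one of NAC1 -0.00072. With cyclic loess, the dim probe sets of NAC1 had -0.0226 and -0.0106. With median centring, NAC26 had 0.00568, and dim probe sets of NAC34, NAC23 and NAC51 had 0.0256, 0.0387 and 0.0471. With each plant left out, NAC12 (above background in black plant 1) ran from -0.751 to 0.469, the first probe set of NAC19 from -0.497 to 0.151, the second one of NAC27 from -0.0253 to 0.593, and those of NAC3 described as the second and the fourth from -0.0971 to 0.437 and from -0.0643 to 0.633. NAC26 ran from -0.144 to 0.127, NAC34 from -0.112 to 0.154, and the second and the third of NAC14 from -0.0117 to 0.14 and from -0.105 to 0.229. Dim probe sets ran from -0.0348 to 0.0737 and -0.0186 to 0.0626 for NAC1, -0.0596 to 0.0658 for NAC22, -0.0339 to 0.0265 for NAC23 and -0.0233 to 0.0236 for NAC51. The causes were not tested.

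Deviations of same-numbered plants from their group means were correlated at 0.092, 0.29 and 0.50 for plants 1 to 3. Those of differently numbered plants were correlated at -0.45 to 0.26. Whether the numbers pair the plants is not settled by these values, and the main fits treated the plants as unpaired. With the number as a replicate block 0 NAC probe sets rose or fell (smallest adjusted p = 0.427 from limma), and 14 soybean probe sets rose and 9 fell in place of 25 and 16. The block leaves every fold change as it was.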
